A study of Mus musculus with 8 samples.

Results

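The genes described here code for the actin, the actin-binding proteins and the myosin light chain that are used as marks of smooth muscle and of contractile fibroblasts. There are 10: Acta2, Actg2, Tagln, Cnn1, Cnn2, Myl9, Tpm1, Tpm2, Cald1 and Fhl1. They were chosen by gene name from the 43346 genes of the deposited count table. All 10 had a row, and no name occurred more than once. RNA came from LLC1 cells, the mouse Lewis lung carcinoma line, and from MLE12 cells, a mouse lung epithelial line. MLE12 was taken from a tumour in which the promoter of a surfactant protein C gene drove a transgene for SV40 large T antigen. Both lines were grown in culture to about 80% confluence and received no reagent. Each was sampled in 4 libraries of poly-A RNA (8 in all), and each stands for a single established line. The lung markers Nkx2-1, Sftpc (the mouse surfactant protein C gene), Sftpb and Cdh1 fitted the MLE12 label. Their summed levels were 1.58 to 1.78 CPM in LLC1 libraries, against 344 to 366 CPM in MLE12 libraries. CPM are counts per 1000000 of the TMM-scaled library total. Libraries held 46840648 to 55285307 counts in LLC1 and 48643667 to 76722481 counts in MLE12. At these totals, without TMM scaling, 3 counts, the most that a count of 0 allows, correspond to at most 0.0640 per 1000000 counts. Such limits and all counts carry counting error only.

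Smooth muscle contracts when myosin slides along actin filaments, and its myosin is switched on by phosphorylation of a regulatory light chain. Tropomyosin, caldesmon and calponin lie along the actin filament and tune that sliding, and transgelin bundles the filaments. Most of these genes have a near relative that serves the cytoskeleton of every cell, and many are switched on by serum response factor (SRF), which binds the CArG box and is helped by myocardin or the myocardin-related factors. The CArG box is a run of A and T letters between a pair of C and a pair of G letters.

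Sequences upstream of the start site are shown for the genes in which a CArG box or an MCAT element was found and whose levels differ most in kind: Acta2 and Myl9, which were low in both lines, Cnn2 and Tpm1, which were abundant, and Fhl1, which was abundant in MLE12. They are RefSeq sequences of build GRCm38.p6, the build that mm10 also names, and each is the 250 bases before the start, 5′ to 3′ along the gene. Capitals mark CArG boxes, CArG boxes with 1 C or G in the core, and the MCAT element (GGAATG or, on the other strand, CATTCC), which is the site of TEAD factors. The windows are chr19:34255374-34255623 (minus strand) for Acta2, chr2:156775214-156775463 (plus) for Myl9, chr10:79988350-79988599 (plus) for Cnn2, chr9:67049214-67049463 (minus) for Tpm1 and chrX:56779433-56779682 (plus) for Fhl1. The start is that of RefSeq and need not be the outer end of the gene as counted. Against the deposited gene spans given below, the Tpm1, Myl9 and Cnn2 windows lie partly inside the gene, and the Fhl1 window wholly.
Acta2: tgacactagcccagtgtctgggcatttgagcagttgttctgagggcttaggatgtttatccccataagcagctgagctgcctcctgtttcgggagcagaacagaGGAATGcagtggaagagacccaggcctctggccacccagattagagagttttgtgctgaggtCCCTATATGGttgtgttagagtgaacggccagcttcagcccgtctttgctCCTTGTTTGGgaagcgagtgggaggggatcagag
Myl9: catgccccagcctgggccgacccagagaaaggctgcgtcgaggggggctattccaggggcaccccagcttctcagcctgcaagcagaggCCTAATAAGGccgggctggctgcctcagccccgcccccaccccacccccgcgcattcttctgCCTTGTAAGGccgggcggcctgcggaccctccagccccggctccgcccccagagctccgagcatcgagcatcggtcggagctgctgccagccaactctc
Cnn2: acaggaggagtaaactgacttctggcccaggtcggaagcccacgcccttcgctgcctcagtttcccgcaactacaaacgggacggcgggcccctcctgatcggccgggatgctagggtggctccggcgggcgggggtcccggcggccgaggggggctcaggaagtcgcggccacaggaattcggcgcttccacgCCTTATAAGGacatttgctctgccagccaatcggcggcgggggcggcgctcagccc
Tpm1: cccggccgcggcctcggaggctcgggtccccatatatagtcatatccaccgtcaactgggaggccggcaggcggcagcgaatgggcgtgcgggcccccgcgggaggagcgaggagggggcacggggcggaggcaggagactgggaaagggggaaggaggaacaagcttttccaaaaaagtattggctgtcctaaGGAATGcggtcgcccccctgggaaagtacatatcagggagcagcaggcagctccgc
Fhl1, first start site: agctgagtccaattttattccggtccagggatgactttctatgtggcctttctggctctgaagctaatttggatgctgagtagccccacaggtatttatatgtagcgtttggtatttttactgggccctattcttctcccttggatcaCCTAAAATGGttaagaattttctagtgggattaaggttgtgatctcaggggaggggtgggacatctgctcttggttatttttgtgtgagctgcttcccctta

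Of the 10 genes, 8 had an entry in that table, with 10 start sites. Actg2 and Tagln had none. An exact CArG box stood upstream of Cnn2 at positions -56 to -47, of Myl9 at -161 to -152 and of the first Fhl1 start site at -102 to -93, counting -1 as the base before the start. It stood in 1.47% of the same windows of all 32851 listed promoters. Boxes with 1 C or G in the core stood at -84 to -75 and -34 to -25 in Acta2 and at -99 to -90 in Myl9, and in 7.24% of all windows. MCAT letters stood at -146 to -141 in Acta2, at -56 to -51 in Tpm1 and upstream of the first Cald1 start site, and in 12.6% of all windows. Exact CArG boxes thus occurred both in a gene low in both lines and in abundant ones. The ratio of observed to expected CpG in the window was 0.231 for Acta2 and 0.141 for Cnn1, against 0.856 for Cnn2, 0.742 for Tpm1 and 0.566 for Tpm2, with a median of 0.373 over all listed promoters. The ratio did not follow the level of the gene throughout. It was 0.539 for Myl9, low in both lines, and for the abundant Cald1 it was 0.322 and 0.309 at its start sites. At the Fhl1 start sites it was 0.166 and 0.199.

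The comparison of LLC1 with MLE12 asks how the carcinoma line and the epithelial line differ in these transcripts. Acta2, Actg2, Cnn1 and Myl9 were below 2 CPM in every library of both lines, while Tpm1, Tpm2, Cald1 and Cnn2 were above 10 CPM in every library and higher in LLC1. Cnn2, Tpm2 and Cald1 were 3.78-, 3.72- and 2.79-fold higher in LLC1, and Tpm1 1.39-fold. Fhl1 was the exception in size, 288-fold higher in MLE12. Of the 10 genes, 9 had enough counts to be tested. Of these, 5 had more in LLC1 and 4 had more in MLE12 by the quasi-likelihood test of edgeR, with p-values adjusted over all 18546 genes tested by the Benjamini-Hochberg method (adjusted p under 0.05). That test called 81.6% of all genes tested, 40.7% higher in LLC1 and 40.9% higher in MLE12, so a call by itself sets no gene of the group apart. Tested against a fold of 2, 7 of the 9 tested passed, a call made for 33.7% of all genes tested. Cnn2, Tpm2 and Cald1 were higher in LLC1, a call made for 16.7% of all genes tested. Tagln, Cnn1, Myl9 and Fhl1 were higher in MLE12, against 16.9%. The call for Cnn1 ended in several alternatives given below. The libraries of the lines did not overlap for the 9 genes tested, which also held for 76.3% of all genes tested. Myl9 and Cnn1 reached the filter's level in 4 libraries only in MLE12, so their place among the tested genes already required a high level there. The median log2 fold change of the tested members was 0.47, and that of all genes tested was 0.02. In RNA from whole cultures, fewer cells that make a transcript and less of it per cell cannot be told apart.

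**Figure D1:**
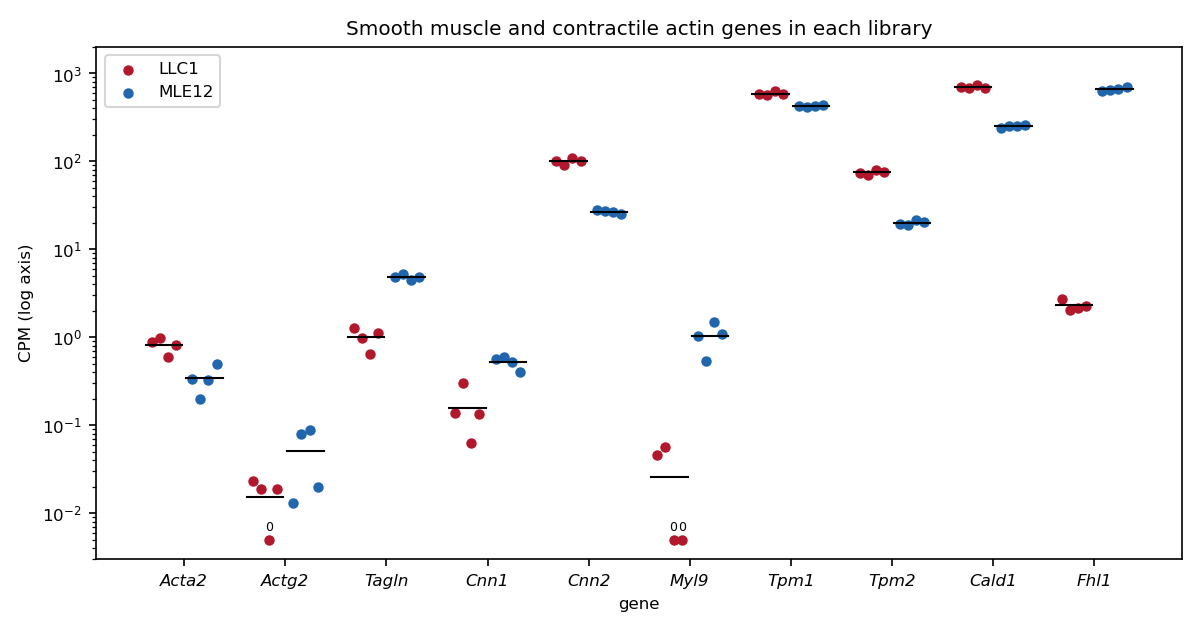
Level of each gene in CPM (log axis) in the 4 LLC1 and 4 MLE12 libraries, with a bar at each mean and libraries without a count drawn at the bottom and marked 0. Tpm1 and Cald1 are the highest of LLC1, at 565 CPM or more, Acta2, Actg2 and Cnn1 lie below 1 CPM in every library, and Fhl1 has the widest gap between the lines.

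Smooth muscle actin transcripts were scarce, and those of Actg2 were at the limit of detection. Acta2 codes for alpha smooth muscle actin (ENSMUSG00000035783, chromosome 19, 34241090 to 34255336, mm10). It had 0.878, 0.992, 0.599 and 0.818 CPM in LLC1 libraries, against 0.336, 0.199, 0.330 and 0.500 CPM in MLE12 libraries. The lines did not overlap, the lowest LLC1 library standing just above the highest MLE12 library. Counts were 29 to 53 in LLC1 libraries and 15 to 26 in MLE12 libraries. The log2 fold change, LLC1 over MLE12 throughout, was 1.30 ± 0.30 (± SE, edgeR adjusted p = 0.000672), and a difference over 2-fold was not called (adjusted p = 0.163). Actg2 codes for the gamma actin of enteric smooth muscle (ENSMUSG00000059430, chromosome 6, 83512905 to 83536265). It had 1, 1, 0 and 1 counts in LLC1 libraries, against 1, 6, 7 and 1 counts in MLE12 libraries, so the lines overlapped, and it had too few counts to be tested. These levels are small beside those of the cytoplasmic actins. Per kb of gene length, Acta2 stood at 0.461 ± 0.0925 CPM in LLC1 against 0.192 ± 0.0693 CPM in MLE12 (SD, n = 4 each here and below). Actb, the beta actin of all cells, stood at 477 ± 25.8 CPM per kb in LLC1 against 593 ± 21.2 CPM per kb in MLE12. Actg1, the cytoplasmic gamma actin, stood at 180.5 ± 10.6 CPM per kb in LLC1 against 264 ± 14.7 CPM per kb in MLE12. Both cytoplasmic actins were thus higher in MLE12, by log2 fold changes of -0.32 ± 0.05 and -0.55 ± 0.05 (edgeR adjusted p = 4.8e-06 and 5.8e-09). Acta2 and Actg2 together made up 0.0720% ± 0.0163 of actin counts per kb in LLC1 and 0.0259% ± 0.00568 in MLE12. The share was higher in every LLC1 library (two-sided exact permutation test, p = 0.0286, the smallest that 4 against 4 libraries can give; 0.0343 adjusted over the 6 family shares tested). The striated muscle actins Acta1 and Actc1 had mean levels of 0.0360 and 0.00951 CPM in LLC1, against 0.137 and 0.00634 CPM in MLE12, and were not tested with the filter; without it Acta1 passed (-1.90 ± 0.78, edgeR adjusted p = 0.0278).

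Among the tropomyosins, which wind along the actin filament, the genes for the alpha and beta chains of muscle made up more of the total in LLC1. Tpm1 (ENSMUSG00000032366, chromosome 9, 67022590 to 67049406) had 585, 565, 631 and 580.1 CPM in LLC1 libraries, against 422, 417, 426 and 439 CPM in MLE12 libraries. Every LLC1 library was higher, by a small step (log2 fold change 0.47 ± 0.04, edgeR adjusted p = 6.4e-09, not called over 2-fold). Tpm2 (ENSMUSG00000028464, chromosome 4, 43514711 to 43523765) had 74.6, 70.6, 78.8 and 75.2 CPM in LLC1 libraries, against 19.7, 18.8, 21.3 and 20.6 CPM in MLE12 libraries. The groups were far apart beside their spread (1.90 ± 0.05, edgeR adjusted p = 4.7e-17). Their cytoskeletal relatives divided. Tpm3 was higher in LLC1 (334 ± 8.92 CPM in LLC1 against 256 ± 5.92 CPM in MLE12, 0.38 ± 0.04, edgeR adjusted p = 4.4e-08). Tpm4 was lower in LLC1 (377 ± 8.44 CPM in LLC1 against 592 ± 24.3 CPM in MLE12, -0.65 ± 0.04, edgeR adjusted p = 3.0e-11). As a result, Tpm1 and Tpm2 supplied 34.0% ± 0.901 of tropomyosin counts per kb in LLC1 and 18.9% ± 0.240 in MLE12 (two-sided exact permutation p = 0.0286, 0.0343 adjusted). Tpm4 was the largest part in both lines, with 49.96% ± 0.687 in LLC1 and 70.1% ± 0.476 in MLE12. Tpm1, Tpm2 and Tpm3 each make muscle and non-muscle forms by alternative promoters or splicing, and counts per gene do not tell the forms apart.

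Cald1 codes for caldesmon, which binds actin and myosin and restrains their sliding (ENSMUSG00000029761, chromosome 6, 34598500 to 34775473). It had 706, 686, 737 and 686 CPM in LLC1 libraries, against 239, 254, 255 and 259 CPM in MLE12 libraries. All LLC1 libraries were above all MLE12 libraries, with a log2 fold change of 1.48 ± 0.04 (edgeR adjusted p = 9.4e-17). Per kb of the deposited length of 7687 bases, its level exceeded that of 97.0% of the genes tested in LLC1 and of 89.2% in MLE12. GENCODE M21 gives its exons a union of 12041 bases, on which its level per kb would be lower. The gene has a smooth muscle form and a form of other cells, which counts per gene also merge.

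The calponins, actin-binding proteins that slow actomyosin, moved in different directions. Cnn1, the calponin of differentiated smooth muscle (ENSMUSG00000001349, chromosome 9, 22099281 to 22109630), had 0.139, 0.299, 0.0620 and 0.133 CPM in LLC1 libraries, against 0.569, 0.597, 0.520 and 0.400 CPM in MLE12 libraries. Every MLE12 library was higher, on 3 to 16 counts in LLC1 libraries and 20 to 45 counts in MLE12 libraries (-1.70 ± 0.38, edgeR adjusted p = 0.000491). Against a fold of 2 the adjusted p was 0.0368. That call ended without LLC1 replicate 1, 3 or 4 (0.0725, 0.121 and 0.0811), without MLE12 replicate 1, 2 or 3 (0.0624, 0.0687 and 0.0511), and with DESeq2 (0.347). Cnn2, the calponin of many cell types (ENSMUSG00000004665, chromosome 10, 79988584 to 79996062), had 100.1, 91.5, 110.5 and 102 CPM in LLC1 libraries, against 28.2, 27.0, 26.4 and 25.2 CPM in MLE12 libraries. It was higher in all LLC1 libraries (1.92 ± 0.06, edgeR adjusted p = 1.1e-16). Cnn3, another calponin of non-muscle cells, went the other way (209.7 ± 7.66 CPM in LLC1 against 522 ± 16.6 CPM in MLE12, -1.32 ± 0.04, edgeR adjusted p = 5.4e-16). Cnn2 thus supplied 28.1% ± 0.955 of calponin counts per kb in LLC1 and 3.998% ± 0.294 in MLE12, and Cnn3 71.8% ± 0.926 in LLC1 and 95.9% ± 0.308 in MLE12. The share of Cnn1 was 0.0469% ± 0.0316 in LLC1 and 0.0814% ± 0.0155 in MLE12, a difference that did not pass (two-sided exact permutation p = 0.114).

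**Figure D2:**
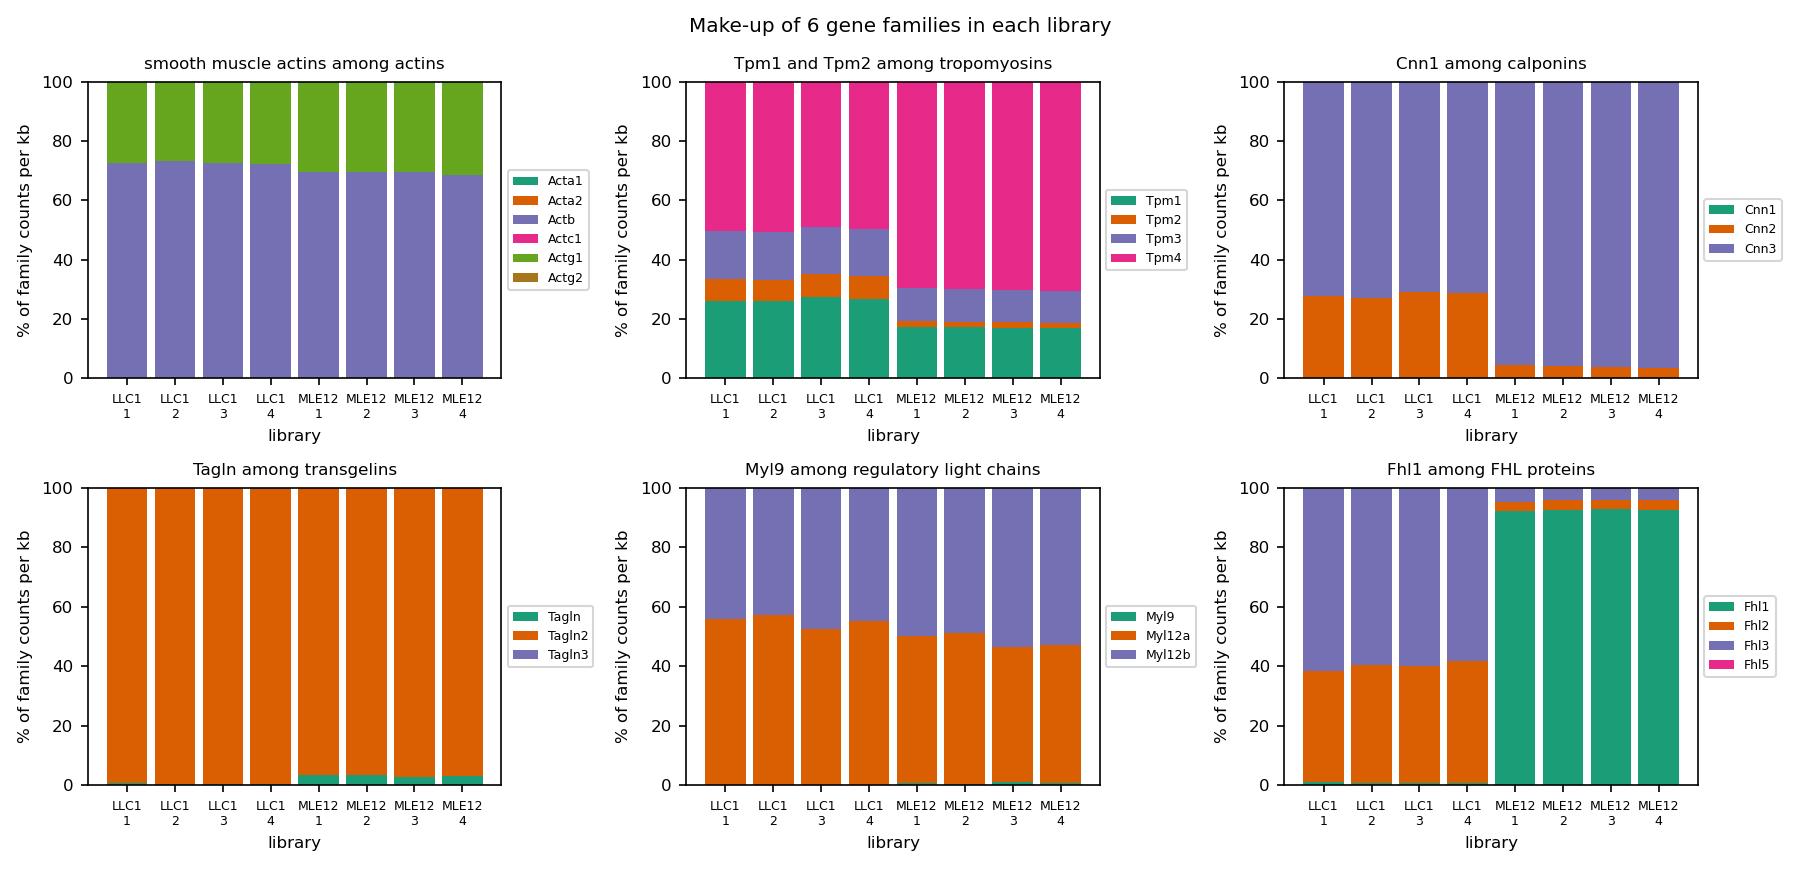
Share of each gene in its family's counts per kb of gene length, in percent, for each of the 4 LLC1 and 4 MLE12 libraries; the shares of a family sum to 100% in a library. Fhl1 takes at most 1.05% of the FHL total in LLC1 libraries, against 92.3 to 93.1% in MLE12 libraries, while the smooth muscle actins, Cnn1 and Myl9 are too thin to see.

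Tagln, the transgelin of smooth muscle also known as SM22 (ENSMUSG00000032085, chromosome 9, 45929628 to 45936058), had 1.27, 0.992, 0.641 and 1.12 CPM in LLC1 libraries, against 4.88, 5.18, 4.44 and 4.86 CPM in MLE12 libraries. All MLE12 libraries were higher, with a log2 fold change of -2.27 ± 0.17 (edgeR adjusted p = 2.4e-10). Tagln2, the transgelin of most cells, was higher in LLC1 (316 ± 15.5 CPM in LLC1 against 198 ± 3.20 CPM in MLE12, 0.67 ± 0.04, edgeR adjusted p = 2.4e-11). The share of Tagln in transgelin counts per kb was 0.419% ± 0.121 in LLC1 and 3.10% ± 0.211 in MLE12 (two-sided exact permutation p = 0.0286, 0.0343 adjusted). Tagln3, a neuronal member, was not tested with the filter (without it, 1.61 ± 0.56, edgeR adjusted p = 0.00930) and had mean levels of 0.257 CPM in LLC1 against 0.0801 CPM in MLE12. In GENCODE M21, 108 exonic bases of Tagln overlap Pcsk7 on the opposite strand, and 1241 bases overlap the antisense gene Gm48529. Pcsk7 was also higher in MLE12 (20.8 ± 1.74 CPM in LLC1 against 55.2 ± 5.02 CPM in MLE12). Gm48529 has no row among the deposited counts, so its level is not known here. The counting strand is not given in the sources used here, and the part of such reads in the Tagln difference was not tested.

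Myl9 codes for the regulatory myosin light chain of smooth muscle (ENSMUSG00000067818, chromosome 2, 156775420 to 156781658). It had 2, 3, 0 and 0 counts in LLC1 libraries, against 79, 41, 116 and 54 counts in MLE12 libraries. The levels were 0.0462, 0.0561, 0 and 0 CPM in LLC1 libraries, against 1.02, 0.544, 1.47 and 1.08 CPM in MLE12 libraries. LLC1 was at or near 0 and MLE12 near 1 CPM (-5.23 ± 0.56, edgeR adjusted p = 6.6e-08). Without LLC1 replicate 2, which held 3 of the 5 LLC1 counts, the log2 fold change was -6.01. The transcripts for the regulatory light chains of non-muscle myosin were far more abundant in both lines. Per kb, Myl12a stood at 83.8 ± 0.984 CPM in LLC1 against 67.4 ± 3.12 CPM in MLE12 (0.31 ± 0.04, edgeR adjusted p = 1.3e-06). Myl12b stood at 68.0 ± 5.16 CPM per kb in LLC1 against 71.9 ± 4.11 CPM per kb in MLE12, a log2 fold change of -0.08 ± 0.05 that did not pass (edgeR adjusted p = 0.185). Myl9 made up 0.0148% ± 0.0172 of these light chain counts per kb in LLC1 and 0.629% ± 0.228 in MLE12 (two-sided exact permutation p = 0.0286, 0.0343 adjusted).

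Fhl1 codes for a protein of LIM domains found in muscle and at focal adhesions (ENSMUSG00000023092, chromosome X, 56731787 to 56793346). It had 2.73, 2.04, 2.17 and 2.28 CPM in LLC1 libraries, against 633, 654, 663 and 694 CPM in MLE12 libraries. The log2 fold change was -8.17 ± 0.07 (edgeR adjusted p = 1.0e-23), larger in size than 98.1% of all genes tested. Per kb its level exceeded that of 23.2% of the genes tested in LLC1, against 98.9% in MLE12. Its relatives ran the opposite way. Fhl2, a LIM protein of heart and of SRF-driven cells, stood at 55.3 ± 4.58 CPM in LLC1 against 11.1 ± 0.656 CPM in MLE12 (2.32 ± 0.07, edgeR adjusted p = 6.7e-17). Fhl3, a LIM protein of skeletal muscle, stood at 74.4 ± 3.65 CPM in LLC1 against 13.7 ± 0.764 CPM in MLE12 (2.44 ± 0.06, edgeR adjusted p = 2.0e-18). Fhl1 supplied 0.843% ± 0.142 of FHL counts per kb in LLC1 and 92.7% ± 0.316 in MLE12 (two-sided exact permutation p = 0.0286, 0.0343 adjusted). Fhl5 had counts in LLC1 replicate 2 alone. The LLC1 level of Fhl1, by plain library totals, was 0.325% of its MLE12 level. Of the 2432 genes of at least 100 CPM in MLE12, 5 including Fhl1 had a share that low, and the lowest was 0.301%. Fhl1 thus lay at a low end that it shared with other genes. By TMM-scaled means its share was 0.349%, beside 0.360% for Cdh1, 0.453% for Nkx2-1, 0.612% for Ctgf and 0.734% for Dcn. Whether the few LLC1 counts of Fhl1 came from LLC1 cells was not tested, and the size of the fold rests on them.

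**Figure D3:**
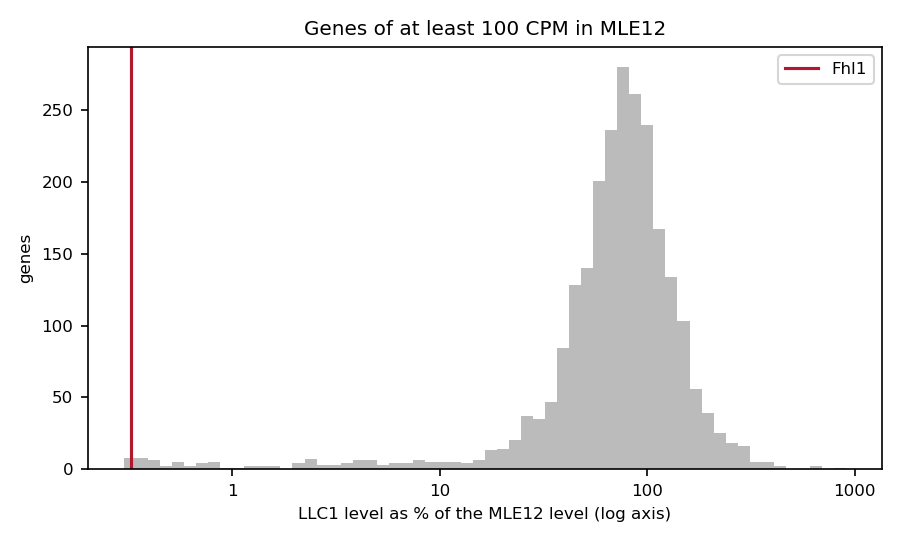
Number of genes (vertical axis) by their LLC1 level as a percent of their MLE12 level (log axis), for the 2432 genes of at least 100 CPM in MLE12. The line marks Fhl1 at 0.325%, at the low end of the distribution.

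Across the 14 relatives fixed beside these families, 10 were tested, with higher levels of 5 in LLC1 and of 4 in MLE12, while Myl12b did not pass. Of all genes tested, 40.7% were called higher in LLC1 and 40.9% higher in MLE12. No window of 100 bases, the read length, in the transcripts of the 10 genes occurred in transcripts of another gene in GENCODE M21. Some relatives did share windows: 29.9% for Actg1, 15.8% for Tpm3, 7.37% for Tpm4, 13.1% for Myl12a and 24.0% for Myl12b, so their counts are less certain. Exons of Tpm4 also overlap an antisense gene, and those of Cnn3 a gene on the opposite strand. Exons of Actg1 overlap microRNA genes on the same strand. Those of Myl12a and Myl12b overlap a further entry named Myl12b that has no row among the deposited counts, and Myl12a also overlaps Myom1.

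**Figure D4:**
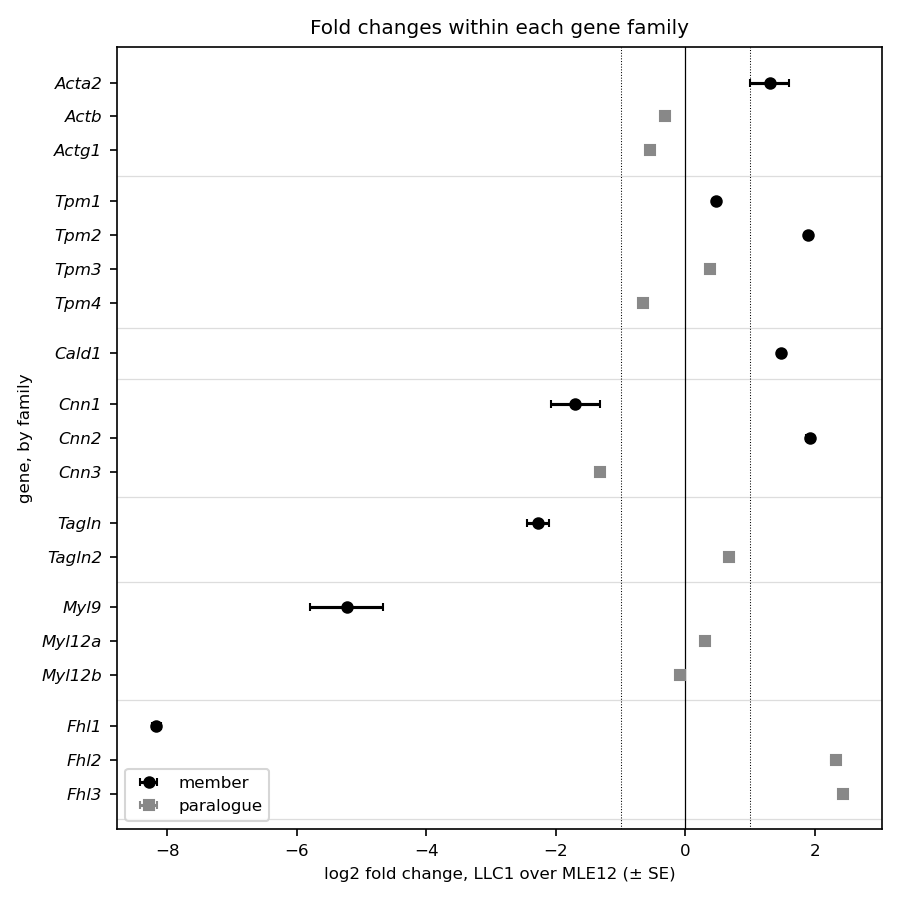
Log2 fold change, LLC1 over MLE12, with SE bars for the 9 tested members (black circles) and 10 tested relatives (grey squares), grouped by family; dotted lines mark a fold of 2. Fhl1 lies at -8.17 and Myl9 at -5.23, while their relatives Fhl2 and Fhl3 lie at 2.32 and 2.44 and Myl12a and Myl12b near 0.

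Other smooth muscle genes differed in both directions. Of 15 listed, 12 were tested, with higher levels of 6 in LLC1 and of 5 in MLE12 while 1 did not pass (median log2 fold change 0.37), beside the 40.7% and 40.9% of all genes tested that were called in these directions. Myh11, the myosin heavy chain that defines mature smooth muscle, had 54 counts over the LLC1 libraries and 63 over the MLE12 libraries and did not pass (0.30 ± 0.39, edgeR adjusted p = 0.482). Lmod1, an actin nucleator of smooth muscle, had 20 counts in LLC1 and 43 in MLE12, and Des, the muscle intermediate filament gene, 54 in LLC1 and 13 in MLE12. Neither was tested with the filter, and without it Des passed (2.46 ± 0.63, edgeR adjusted p = 0.000328) and Lmod1 did not. Kcnmb1 had no count. Some other genes of the list were well above these. The rest, not named here, were also low, with means of at most 5.03 CPM in LLC1 and 1.48 CPM in MLE12, apart from the gene not reported. Smtn, for smoothelin, stood at 96.0 ± 4.12 CPM in LLC1 against 15.0 ± 0.666 CPM in MLE12 (2.67 ± 0.05), and Pdlim7 (0.45 ± 0.05) was also higher in LLC1. Synm, an intermediate filament gene, was at 2.21 ± 0.422 CPM in LLC1 against 81.8 ± 1.89 CPM in MLE12 (-5.20 ± 0.08), and the LIM gene Csrp1 (-1.86 ± 0.05) was also higher in MLE12.

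The 13 genes of non-muscle myosin and its switch were all tested (median -0.28). Of these, 4 were called higher in LLC1 and 8 in MLE12, while 1 did not pass. The same calls were made for 40.7% and 40.9% of all genes tested. The GTPase gene Rhoc (1.80 ± 0.05), the actin crosslinker Actn1 (1.31 ± 0.04) and the kinase Rock2 (0.52 ± 0.05) were higher in LLC1. The myosin heavy chain Myh14 (-8.03 ± 0.15), at 0.152 ± 0.0941 CPM in LLC1 against 40.1 ± 2.05 CPM in MLE12, its relative Myh10 (-1.58 ± 0.05) and the light chain Myl6 (-0.67 ± 0.05) were higher in MLE12.

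Srf itself was slightly lower in LLC1, and myocardin was at the limit of detection. Srf had 64.1, 63.7, 69.8 and 67.7 CPM in LLC1 libraries, against 79.3, 74.6, 73.4 and 71.6 CPM in MLE12 libraries, a small difference that passed (-0.17 ± 0.05, edgeR adjusted p = 0.00239). Myocd, the myocardin gene, had no count in LLC1 libraries, against 2, 2, 4 and 8 counts in MLE12 libraries. It was not tested with the filter and passed without it (edgeR adjusted p = 0.00642). The myocardin-related coactivators differed in opposite directions. Mkl1 stood at 67.2 ± 2.43 CPM in LLC1 against 45.3 ± 3.24 CPM in MLE12 (0.57 ± 0.05, edgeR adjusted p = 6.2e-09), and Mkl2 at 42.1 ± 1.21 CPM in LLC1 against 73.0 ± 3.33 CPM in MLE12 (-0.79 ± 0.05, edgeR adjusted p = 6.6e-12). Of the 8 genes in this list 7 were tested, 2 higher in LLC1 and 5 in MLE12 (median -0.27). These calls were made for 40.7% and 40.9% of all genes tested. Elk3, a partner factor of SRF, was higher in LLC1 (2.82 ± 0.05), and the partner Elk1 (-0.78 ± 0.06) and the GATA factor Gata6 (-4.07 ± 0.06) were higher in MLE12. All 10 other SRF target genes were tested, 4 higher in LLC1 and 6 in MLE12 (median -0.30), beside those 40.7% and 40.9%. With library totals alone, 2 were called higher in LLC1. Filip1l (2.17 ± 0.07), the focal adhesion gene Zyx (1.06 ± 0.06) and the actin crosslinker Flna (0.20 ± 0.06) were higher in LLC1. Ctgf (-7.36 ± 0.08), Cyr61 (-4.84 ± 0.05) and Ankrd1 (-3.32 ± 0.07), which are targets of YAP as well, were higher in MLE12.

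**Figure D5:**
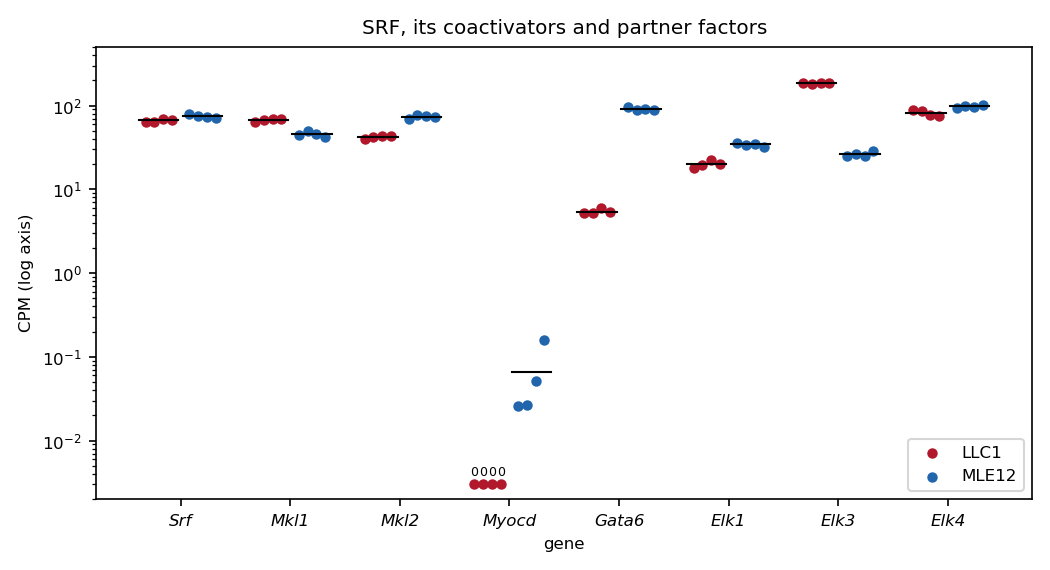
Level in CPM (log axis) of SRF, its coactivators and partner factors in the 4 LLC1 and 4 MLE12 libraries, with a bar at each mean and libraries without a count drawn at the bottom and marked 0. Srf lies between 63.7 and 79.3 CPM in all libraries, and Myocd has no count in LLC1.

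Markers of other cells that could carry contractile genes were mostly scarce. Of 11 striated muscle markers, Myod1 and Myf5 had no count and 2 were tested. Tnnt2, the troponin T of heart, was higher in MLE12 (0.0351 ± 0.0177 CPM in LLC1 against 10.3 ± 0.514 CPM in MLE12, -8.11 ± 0.20) and Nppa did not pass (edgeR adjusted p = 0.127). The summed level of the list was 0.505 to 0.951 CPM in LLC1 libraries, against 10.4 to 11.6 CPM in MLE12 libraries. Of 6 pericyte and fibroblast markers, the summed level was 4.10 to 4.62 CPM in LLC1 libraries, against 312 to 348 CPM in MLE12 libraries, almost all of it the matrix proteoglycan gene Dcn (-7.09 ± 0.06). The other member tested, Pdgfrb, stood at 1.61 ± 0.175 CPM in LLC1 against 5.56 ± 0.813 CPM in MLE12 (-1.80 ± 0.14). The pericyte genes Rgs5, Cspg4 and Abcc9 had means of at most 0.174 CPM in either line. The part of these markers in the higher Tagln, Myl9, Cnn1 and Fhl1 of MLE12 was not tested.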

How the data were processed

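The authors deposited raw counts per gene for 8 libraries. Per the submitters' processing notes the tools were edgeR, featureCounts, TopHat2 and CASAVA and the build mm10; versions, strand setting and annotation release are not given in the sources used here. Values per kb use the deposited length of a gene. It equalled the union of its exons in GENCODE M21 for 74.7% of matched genes, and for 94.7% of those with the same start and end. It was shorter for Acta2 (1781 against 2196 bases), Tagln (1586 against 1988), Cnn1 (2368 against 2736), Cald1 (7687 against 12041), Cnn3 (2003 against 3037) and Myl12b (1711 against 2770). It was also shorter for Acta1 (1433 against 1536) and Myl12a (3201 against 3360), and slightly longer for Actg2 (1562 against 1557). Levels per kb and family shares of these genes therefore depend on the annotation. Groups are the cell lines of the labels. Whether replicate libraries represent different cultures is not in the labels, and p-values then reflect only the variation among these libraries, perhaps technical. Libraries within a line differed beyond counting noise (chi-square over degrees of freedom, 6.35 to 53.1), so none was counted as a duplicate.

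The deposited counts were fitted in edgeR 4.0.16 (R 4.3.3) over 18546 genes kept by filterByExpr, with TMM scaling, glmQLFit (robust), glmQLFTest and glmTreat against a fold of 2, Benjamini-Hochberg adjusted. Each SE was derived from the fold change and its F statistic (absolute log2 value over root F). Alternatives were DESeq2 1.42.0, its size factors, library totals alone, no filter, at least 1 CPM in 4 libraries, each library left out, and a replicate block; for family shares, counts not divided by length.

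The members and the lists (relatives, other smooth muscle genes, non-muscle myosin, SRF factors, SRF targets, striated muscle, pericyte and fibroblast markers, lung markers) were chosen with earlier results of these data known. All members and relatives are named, and, with Myh11, Myocd, Lmod1, Des, Srf, Mkl1 and Mkl2, up to 3 called genes per direction from each other list with at least 10 CPM in the higher line; 1 gene that this rule names is not reported here. Kcnmb1, Pdgfrb, Rgs5, Cspg4, Abcc9, Nppa, Myod1 and Myf5 were named after their values were seen.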

Additional observations from a re-analysis of the deposited data

Results flagged for a closer look

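Of 122 groups of 4 libraries examined, 10 held a library far from the other 3; chance gives about 1 in 20. None concerned the 10 genes themselves or a family share. Among relatives at the limit of detection, Actc1 had counts only in LLC1 replicate 4 (0.0381 CPM) and MLE12 replicate 3 (0.0254 CPM), and Fhl5 only in LLC1 replicate 2 (0.0374 CPM). Rock2 was low in LLC1 replicate 3 (339 CPM, others 373 to 378) and in MLE12 replicate 1 (242 CPM, others 258 to 261). Mkl2 was low in LLC1 replicate 1 (40.3 CPM, others 42.5 to 42.9). Actn1 (164 CPM, others 175 to 176) and Zyx (91.3 CPM, others 106 to 108) were low in MLE12 replicate 4. Ankrd1 was low in MLE12 replicate 2 (72.7 CPM, others 77.2 to 77.8), and Tnnt2 was high in MLE12 replicate 3 (11.1 CPM, others 10.1 at most).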

How the results depend on the processing

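For the 9 members tested, the direction and the call at an adjusted p under 0.05 were the same in all 123 alternative values, DESeq2 included; Myl9 ranged from -6.01 (without LLC1 replicate 2) to -4.81, Cnn1 from -2.22 to -1.44 and Acta2 from 1.09 to 1.5 on the log2 scale. With at least 1 CPM required in 4 libraries, Acta2, Cnn1 and Myl9 were not tested, and 2 members were called higher in MLE12, also over 2-fold. Without a filter Actg2 did not pass (-1.68 ± 1.15, edgeR adjusted p = 0.207), nor did Actc1, Fhl5 and Lmod1, while Des (0.000328), Myocd (0.00642), Tagln3 (0.00930) and Acta1 (0.0278) passed by edgeR adjusted p. Leaving out 1 library gave 3 to 4 members over 2-fold higher in MLE12. The smooth muscle actin share differed by 0.0404 to 0.0534 percentage points and the Myl9 share by -0.709 to -0.524 on leaving out 1 library. In both, leaving out a library of the lower line (any MLE12 or any LLC1 library) gave an exact p of 0.0571, so that the call ended. The lines still did not overlap. The actin share was 0.0498% or more in LLC1 libraries and 0.0326% or less in MLE12 libraries. The Myl9 share was 0.0328% or less in LLC1 libraries and 0.345% or more in MLE12 libraries. The p rose because another split of the unequal groups gave a difference at least as large. With library totals alone, which moved the median of all genes by -0.099, Myl12b passed (-0.18, edgeR adjusted p = 0.00829) and Flna did not (0.10, edgeR adjusted p = 0.177), and the SRF targets called higher in LLC1 numbered 2 instead of 4. Myl12b also passed without a filter and without LLC1 replicate 3 or MLE12 replicate 2. Libraries share a number across lines, but deviations from the line mean correlated at -0.0646 to 0.108 for same-numbered pairs, and 4 of 8 libraries correlated best with their own number. With the replicate block 9 members were called, 5 higher in LLC1 and 4 in MLE12. Depth limits Actg2, Myocd, Myl9 in LLC1 and Cnn1, whose libraries held at most 45 counts. It also limits Acta2, with 29 to 53 counts in LLC1 libraries and 15 to 26 counts in MLE12 libraries.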

Other observations

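Within LLC1, replicate 3 held the lowest level of Acta2, Tagln, Cnn1 and Actg2 and the highest of Cnn2, Tpm1, Tpm2 and Cald1, a pattern noticed after the values were seen and not tested. Fhl1, also low in LLC1, was lowest in replicate 2 (2.04 CPM) and stood at 2.17 CPM in replicate 3. Acta2 stood at 0.599 CPM there and at 0.818 to 0.992 CPM in the other LLC1 libraries, Tagln at 0.641 CPM there and 0.992 to 1.27 CPM elsewhere, and Cnn1 at 0.0620 CPM there and 0.133 to 0.299 CPM elsewhere. Actg2 had no count in replicate 3, and Myl9 had none in replicates 3 and 4. Cnn2 (110.5 CPM), Tpm1 (631 CPM), Tpm2 (78.8 CPM) and Cald1 (737 CPM) were highest in that library.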
